A study of Homo sapiens with 6 samples.

Results

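The BCL2 family and the inhibitors of apoptosis set the threshold at which a cell commits to programmed death. Described here are 10 genes of that machinery, BCL2A1, BCL2, BCL2L1, MCL1, BCL2L11, BAK1, BID, BIRC2, BIRC3 and CFLAR, chosen by symbol from the 31831 genes of the count table. Each symbol matched 1 row, and all 10 genes passed the filter on low counts. The libraries came from HK-2, an established line of human renal proximal tubular epithelial cells, kept in 30 mM glucose for 72 h. Cells of the HG-OE group (n = 3) carried a lentiviral construct that overexpressed hnRNP-F, an RNA-binding protein of the heterogeneous nuclear ribonucleoprotein F/H family, and cells of the HG-NC group (n = 3) carried its empty vector, named a control plasmid in the labels. High glucose was thus common to both groups, and all 6 libraries derived from 1 cell line. The comparison asked which transcripts differed once hnRNP-F was raised under high glucose.

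In the mitochondrial pathway, BAX and BAK1 form pores in the outer mitochondrial membrane, anti-apoptotic relatives (BCL2, BCL-xL from BCL2L1, MCL-1, BFL-1 from BCL2A1) hold them in check, and BH3-only proteins such as BIM (BCL2L11) and BID oppose that check. Cytochrome c released through the pores assembles the apoptosome, which activates caspase-9. At death receptors, c-FLIP (CFLAR) competes with caspase-8, while cIAP1 (BIRC2) and cIAP2 (BIRC3) ubiquitinate RIPK1 and so favour survival signalling over death. BIRC3, CFLAR and BCL2A1 are well-known NF-kB target genes, and in kidney tubules this balance is studied in ischaemic and diabetic injury.

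HNRNPF itself was counted 7733, 8623 and 8692 times in the HG-NC libraries and 12492, 13155 and 12397 times in the HG-OE libraries. Its level was 311 ± 7.23 CPM (counts divided by library size and scaled, SD, n = 3) in HG-NC and 435 ± 14.9 under overexpression, a 1.40-fold difference, with no overlap between groups (log2 fold change 0.48, SE 0.0388). The counts cover reads aligned to the human gene. The methods give the same gene identifier for the constructs used in HK-2 cells and in mouse podocytes. Reads from a construct of mouse sequence would be counted only in part. Library totals ran from 25507595 to 29444841 counts. Across genes, the log2 CPM of the HG-OE 3 library correlated at 0.987 with each of the other HG-OE libraries, below the 0.995 between HG-OE 1 and HG-OE 2 and above the 0.971 to 0.978 between groups. HG-OE 3 also stood apart in markers of other cell types. Its 8 hepatocyte markers summed to 284 CPM against 1.37 to 10.1 in the other 5 libraries, its 8 squamous epithelium markers to 56.2 against at most 0.197, and its 7 measured leukocyte markers to 18.0 against 6.34 to 6.90, with PTPRC at no more than 0.0689 CPM in any library. The 8 proximal tubule markers summed to 8.26 to 12.0 CPM in HG-NC and 13.9 to 16.9 CPM in HG-OE. Among them AQP1 did not exceed 0.250 CPM in any library and LRP2 was at 0 in 5, whereas SLC5A2 lay between 2.87 and 4.54 CPM, and MME went from 4.26 ± 0.820 to 8.64 ± 0.436 CPM (log2 fold change 1.02, and 0.99 without HG-OE 3). Of the general epithelial markers KRT8 (1.35) and KRT18 (0.76) rose and KRT19 (-0.55) and EPCAM (-0.56) fell on the log2 scale. Without HG-OE 3 the values were 1.11 for KRT8, 0.44 for KRT18, -0.70 for KRT19 and -0.63 for EPCAM. CDH1 stayed at or below 0.343 CPM outside HG-OE 3. The part of these markers in the results was not tested. Results that depended on HG-OE 3 are named beside their values.

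Under hnRNP-F overexpression 5 of the 10 genes fell, BCL2A1, BIRC3, CFLAR, BIRC2 and BCL2, and BAK1 alone rose, by a small margin. BCL2L1, MCL1, BCL2L11 and BID did not pass at an adjusted p of 0.05. Tests were made by edgeR (quasi-likelihood F) over the 17142 genes with sufficient counts, with Benjamini-Hochberg adjustment. These counts stand against a broad response, since 51.8% of all tested genes passed, 25.9% lower and 25.9% higher. Without HG-OE 3, 8 of the 10 genes passed, 6 lower and 2 higher, where that fit called 53.9% of 17366 genes, 27.2% lower and 26.7% higher. In it the 5 genes that fell had log2 fold changes of -2.09 (BCL2A1), -1.07 (BIRC3), -0.60 (CFLAR), -0.52 (BIRC2) and -0.34 (BCL2). BCL2A1 and BIRC3 also passed a 2-fold minimum, which 5.82% of tested genes did, 2.13% lower and 3.69% higher. Groups did not overlap in CPM for 7 of the 10 genes, against 59.0% of all tested genes, and lay wholly lower in HG-OE for 5 of them, against 29.4%. Over the 10 genes the log2 fold change had a median of -0.22, against 0.01 over all tested genes. In bulk RNA, fewer cells that express a gene and less RNA of it in each cell cannot be told apart.

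**Figure D1:**
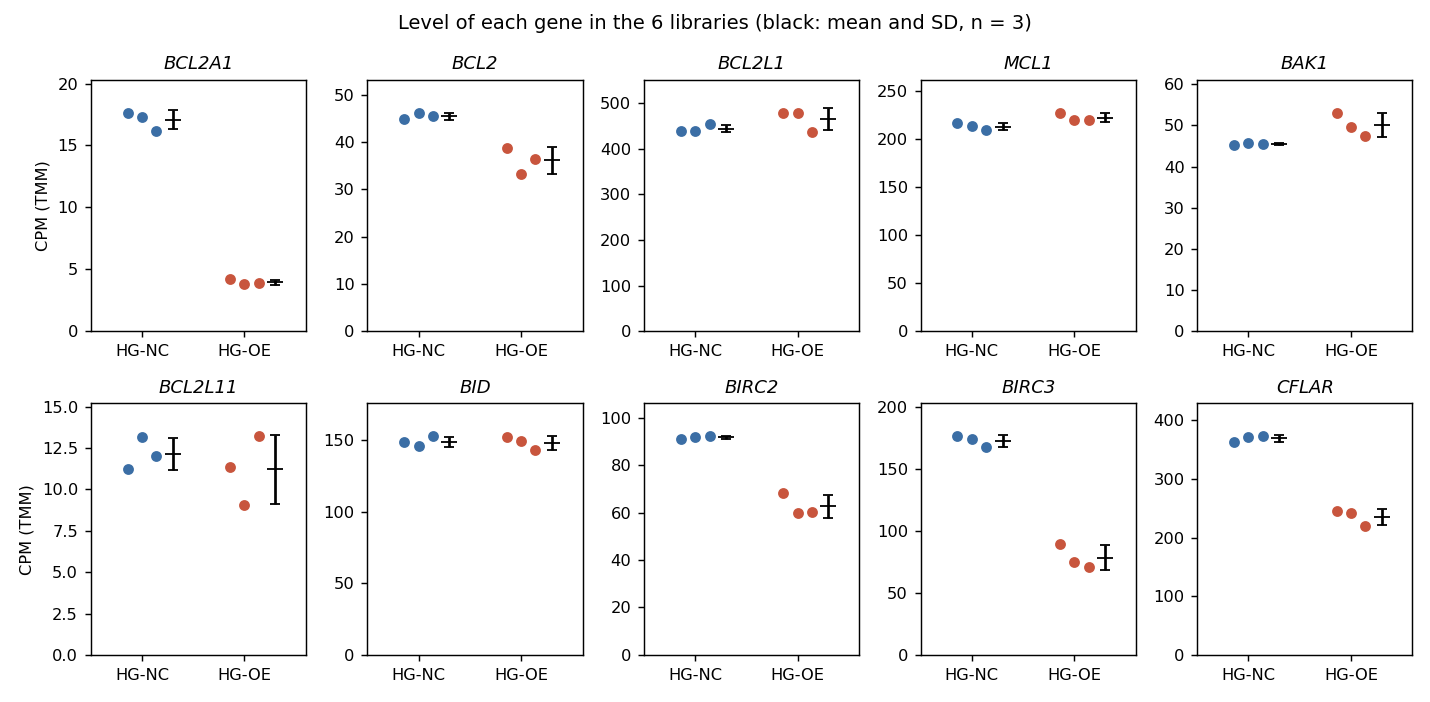
CPM (TMM-normalised) of each of the 10 genes in the 3 HG-NC and 3 HG-OE libraries, with an axis from 0 for each gene; points are libraries and black marks the mean and SD. BCL2A1 drops from between 16.2 and 17.7 CPM to between 3.81 and 4.20, BIRC3, CFLAR, BIRC2 and BCL2 lie wholly lower in HG-OE, and the groups of BCL2L1, BCL2L11 and BID overlap.

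The sequence upstream of a transcription start is given for the 4 genes with the largest fold changes among the 10. Each run is the 250 bases before a RefSeq start in GRCh38.p14, read 5′ to 3′ on the gene's own strand, at chr15:79971197-79971446 (minus strand) for BCL2A1, chr11:102317234-102317483 (plus) for BIRC3, chr11:102346964-102347213 (plus) for BIRC2 and chr2:201118466-201118715 (plus) for CFLAR. Capitals mark matches to the kB motif, the sequence bound by NF-kB dimers, searched on both strands.
BCL2A1: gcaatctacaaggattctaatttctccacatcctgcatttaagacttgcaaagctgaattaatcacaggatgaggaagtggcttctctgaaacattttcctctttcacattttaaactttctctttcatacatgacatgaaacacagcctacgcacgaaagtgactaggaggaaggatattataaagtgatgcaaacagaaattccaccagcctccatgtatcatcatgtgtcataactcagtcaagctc
BIRC3: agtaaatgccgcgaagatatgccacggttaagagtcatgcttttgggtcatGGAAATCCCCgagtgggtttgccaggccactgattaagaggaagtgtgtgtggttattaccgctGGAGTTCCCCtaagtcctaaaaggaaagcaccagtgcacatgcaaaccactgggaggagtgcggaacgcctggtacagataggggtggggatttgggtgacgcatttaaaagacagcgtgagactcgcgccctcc
BIRC2: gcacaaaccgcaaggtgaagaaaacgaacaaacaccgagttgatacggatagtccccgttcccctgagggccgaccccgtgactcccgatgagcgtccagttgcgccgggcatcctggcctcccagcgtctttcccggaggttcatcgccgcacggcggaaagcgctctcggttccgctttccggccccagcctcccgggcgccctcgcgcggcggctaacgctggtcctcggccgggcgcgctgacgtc
CFLAR: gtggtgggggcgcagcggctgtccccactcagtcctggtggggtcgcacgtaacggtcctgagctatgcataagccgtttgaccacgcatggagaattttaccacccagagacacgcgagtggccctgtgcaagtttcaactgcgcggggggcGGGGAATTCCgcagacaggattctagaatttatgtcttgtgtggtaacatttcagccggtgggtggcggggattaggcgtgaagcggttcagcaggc
BIRC3 held 2 matches, at 199 to 190 and 135 to 126 bases before its start and both read on the opposite strand, and CFLAR held 1, at 97 to 88 bases on its own strand. The BCL2A1 and BIRC2 runs held none in these 250 bases. The RefSeq table held 18 windows of 9 of the 10 genes, and 2 windows of 2 genes had a match. CFLAR had 4 windows, of which the 3 not printed had none, and the second BIRC2 window had none. By comparison, 5.21% of all 35116 windows and 6.28% of 27305 genes had one, and 1.13% of windows held 2 or more, as in BIRC3. A match describes letters and does not show that a factor binds there. The BIRC2 run was rich in G and C at 67.6%, against 38.8% in BCL2A1.

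BCL2A1 encodes BFL-1, a short-lived anti-apoptotic protein best known from blood cells and from cells stimulated by NF-kB. BCL2A1 (chromosome 15, 79960892 to 79971196, minus strand, GRCh38) was counted 449, 469 and 453 times in HG-NC and 122, 111 and 113 times in HG-OE. That gave 17.7, 17.3 and 16.2 CPM in HG-NC and 4.20, 3.81 and 3.86 CPM in HG-OE. Every HG-OE library was far below every HG-NC library, and the spread within each group was small beside the gap. The level fell from 17.1 ± 0.761 to 3.96 ± 0.214 CPM (SD, n = 3), to 0.232 of the control (log2 fold change -2.11, 95% interval -2.32 to -1.89, SE 0.0982, edgeR adjusted p = 2.15e-09). Leaving out any 1 library kept the log2 fold change between -2.15 and -2.08.

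BCL2, the founding member of the family, changed by a smaller margin. BCL2 (chromosome 18, 63123346 to 63320128, minus strand) stood at 44.8, 46.3 and 45.4 CPM in HG-NC and at 38.8, 33.2 and 36.3 CPM in HG-OE. The groups did not overlap, although HG-OE varied more (SD 2.80 against 0.732). The log2 fold change was -0.33 (SE 0.0599, edgeR adjusted p = 3.68e-04).

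BCL2L1, which had the highest level per length of the 10 genes in both groups, and MCL1 did not pass the test. BCL2L1 (chromosome 20, 31664452 to 31723989, minus strand) stood at 439, 439.8 and 453 CPM in HG-NC and at 479, 479 and 438 CPM in HG-OE, so that HG-OE 3 lay below every control library and the other HG-OE libraries above them all. Its log2 fold change was 0.07 with an interval of -0.02 to 0.16 (edgeR adjusted p = 0.197), and without HG-OE 3 it was 0.11 with an adjusted p of 0.00664. F/H-family hnRNPs are known regulators of the BCL-x splice choice between BCL-xL and the pro-apoptotic BCL-xS, and gene counts do not separate these isoforms. MCL1 (chromosome 1, 150560895 to 150579738, minus strand), whose product turns over fast, stood at 217, 213 and 209 CPM in HG-NC and at 228, 220.3 and 219.9 CPM in HG-OE. The MCL1 groups did not overlap, yet the difference was small (log2 fold change 0.06, interval -0.02 to 0.14, edgeR adjusted p = 0.180).

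On the scale per length, FPKM, the makeup of the anti-apoptotic transcripts of the family was compared. BCL2L1 supplied 61.8 ± 0.906% (SD, n = 3) of the summed FPKM of BCL2, BCL2L1, BCL2L2, MCL1 and BCL2A1 in HG-NC and 68.6 ± 1.09% in HG-OE. MCL1 supplied 20.02 ± 0.405% and 22.2 ± 0.653%, whereas BCL2A1 went from 10.0 ± 0.475% to 2.46 ± 0.110% and BCL2 from 2.11 ± 0.0433% to 1.78 ± 0.144%. BCL2L2, which encodes BCL-w, made up 6.09 ± 0.127% and 5.01 ± 0.236%. The summed FPKM was 153 ± 1.25 in HG-NC and 143 ± 5.74 in HG-OE. These shares are a description, depend on the length taken for each gene and were not tested. They sum to the whole in each library, so a share can rise without a rise in level. Mean FPKM of BCL2L1 was 94.7 in HG-NC and 98.1 in HG-OE, that of MCL1 30.7 and 31.7, and that of BCL2A1 15.3 and 3.52. BCL2L2 CPM fell from 50.5 ± 1.25 to 39.2 ± 1.01 (log2 fold change -0.37, edgeR adjusted p = 3.44e-05), but a readthrough gene, BCL2L2-PABPN1, covers it on the same strand with a mean of 5716 counts per library, and its own log2 fold change was 0.12, so reads shared by both genes make the BCL2L2 value uncertain. BCL2L10 did not pass the filter. Of the 6 listed anti-apoptotic genes 5 were tested, 3 fell and 2 did not pass, with a median log2 fold change of -0.33. Over all tested genes 25.9% fell.

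**Figure D2:**
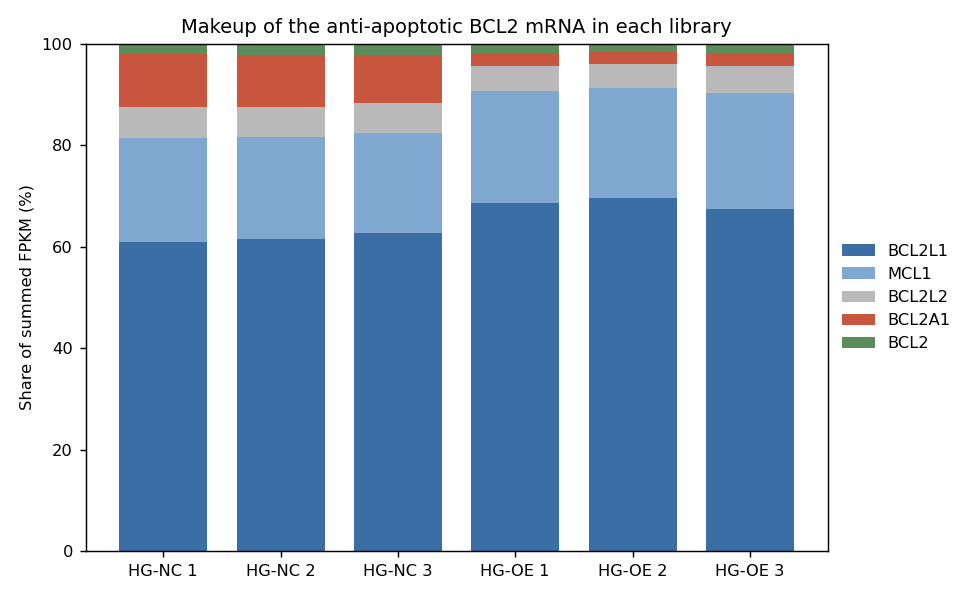
Share of each of 5 anti-apoptotic genes in their summed FPKM, as stacked bars for the 6 libraries with a vertical axis from 0 to 100%. BCL2L1 takes the largest share in every library, on average 61.8% in HG-NC and 68.6% in HG-OE, and BCL2A1 takes 10.0% and 2.46%.

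BAK1 (chromosome 6, 33572547 to 33580293, minus strand), one of the pore-forming effectors, stood at 45.2, 45.7 and 45.5 CPM in HG-NC and at 53.1, 49.7 and 47.3 CPM in HG-OE. All HG-OE libraries were above all HG-NC libraries, and the HG-OE values were the more spread. The log2 fold change was 0.14 (SE 0.0535, edgeR adjusted p = 0.0430). The call was lost in 5 of the 6 fits that left out 1 library, all but that without HG-OE 3 (adjusted p = 0.00588), and in DESeq2 (adjusted p = 0.0680). Both other effectors passed the test in opposite directions. BOK rose from 63.2 ± 2.21 to 95.1 ± 1.90 CPM (log2 fold change 0.59, edgeR adjusted p = 1.49e-07), and BAX fell from 100.5 ± 2.49 to 91.5 ± 2.24 CPM (log2 fold change -0.13, edgeR adjusted p = 0.0138), a call lost without HG-NC 2 (adjusted p = 0.0724) and less the median of the genes within 10 Mb (-0.070, adjusted p = 0.182). BAK1 less that median was 0.069 (adjusted p = 0.320).

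The BH3-only members of the 10 genes, BCL2L11 and BID, did not pass the test. BCL2L11 (chromosome 2, 111119378 to 111168444, plus strand), encoding BIM, which binds every anti-apoptotic relative, stood at 11.2, 13.2 and 12.0 CPM in HG-NC and at 11.4, 9.07 and 13.2 CPM in HG-OE. The groups overlapped and HG-OE was the more scattered, with an SD of 2.08 CPM. The log2 fold change was -0.11 with an interval of -0.38 to 0.15 (edgeR adjusted p = 0.466), and without HG-OE 3 it was -0.25 with an adjusted p of 0.0419. The long non-coding gene MIR4435-2HG lies over it on the opposite strand with a mean of 1348 counts per library, against 326.5 for BCL2L11, and whether the counting used strand is not given in the sources used here, so the BCL2L11 value is uncertain. BID (chromosome 22, 17734138 to 17774770, minus strand), which caspase-8 cleaves to link death receptors to mitochondria, stood at 148, 145 and 153 CPM in HG-NC and at 152, 149 and 143 CPM in HG-OE. Its groups lay over one another (log2 fold change -0.01, interval -0.10 to 0.08, edgeR adjusted p = 0.879).

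Other BH3-only genes moved in both directions. PMAIP1, encoding NOXA, which binds MCL-1 and BFL-1, stood at 329, 311 and 319.5 CPM in HG-NC and at 178, 182 and 183 CPM in HG-OE, and fell by 0.82 on the log2 scale (SE 0.0379, edgeR adjusted p = 1.94e-09). BMF, whose product is held at the cytoskeleton until released to bind BCL2 proteins, stood at 10.1, 7.98 and 9.23 CPM in HG-NC and at 18.2, 17.6 and 23.3 CPM in HG-OE. Its log2 fold change was 1.11 (SE 0.119, edgeR adjusted p = 3.85e-06), and without HG-OE 3 it was 0.98, below the 2-fold minimum. BAD rose (0.25, adjusted p = 0.00176), though less the median of 0.20 of the genes within 10 Mb it was 0.052 (adjusted p = 0.479), and BBC3, encoding PUMA, fell (-0.23, adjusted p = 0.0395), the latter in a call lost without any of 5 of the libraries in turn, HG-OE 1 being the exception, and less its regional median (-0.14, adjusted p = 0.215). Of the 8 BH3-only genes listed 2 rose, 2 fell and 4 did not pass, with a median log2 fold change of -0.06. The shares over all tested genes were 25.9% higher and 25.9% lower.

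Both cellular IAP genes, neighbours on chromosome 11, fell. BIRC3 (102317484 to 102339403, plus strand) stood at 177, 174 and 168 CPM in HG-NC and at 89.9, 74.8 and 70.8 CPM in HG-OE. Every HG-OE library lay below every control library, and HG-OE 1 was the highest of the group. The level went from 173 ± 4.68 to 78.5 ± 10.1 CPM (SD, n = 3), to 0.454 of the control (log2 fold change -1.14, interval -1.29 to -0.99, SE 0.0688, edgeR adjusted p = 2.22e-08), and leaving out any 1 library gave -1.25 to -1.07. BIRC2 (102347211 to 102378670, plus strand) stood at 91.1, 92.0 and 92.2 CPM in HG-NC and at 68.3, 59.7 and 60.2 CPM in HG-OE. Its groups also lay apart, with HG-OE 1 again the highest of its group. The level fell to 0.684 of the control (log2 fold change -0.55, SE 0.0528, edgeR adjusted p = 1.51e-06).

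The ratio of BIRC3 to BIRC2 set the 2 cIAP genes against each other in the same library. On the log2 scale it was 0.95, 0.92 and 0.86 in HG-NC and 0.40, 0.33 and 0.23 in HG-OE. The HG-OE values all lay under the HG-NC values, by 0.59 on average, with an exact two-sided permutation p of 0.1, the smallest that 3 against 3 libraries allow, and 0.2 after adjustment over the 4 ratios computed. A second ratio, BCL2A1 to MCL1, was -3.64 ± 0.0405 in HG-NC and -5.79 ± 0.0468 in HG-OE (difference -2.15, exact permutation p = 0.1, adjusted 0.2). The ratio of BCL2L1 to BCL2L11 was 5.28, 5.05 and 5.23 in HG-NC and 5.39, 5.71 and 5.04 in HG-OE. It differed by 0.19 (exact permutation p = 0.5, adjusted 0.5), and its groups overlapped through HG-OE 3 alone. Without HG-OE 3 the difference was 0.36 (exact permutation p = 0.1), and without HG-OE 2 it was 0.026. Since the BCL2L11 value is uncertain for the overlap with MIR4435-2HG, so is this ratio.

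Among other IAP genes, BIRC7, which encodes livin, was scarcely counted in HG-NC, at 15, 17 and 21 counts, and stood at 145, 154 and 126 counts in HG-OE. Its level was 0.656 ± 0.0844 CPM in HG-NC, and under overexpression 4.86 ± 0.507 CPM, opposite to the cIAP genes (log2 fold change 2.88, SE 0.196, edgeR adjusted p = 6.71e-08). BIRC5, encoding survivin, a protein of dividing cells, fell by 0.32 (adjusted p = 6.11e-05). XIAP, the direct caspase inhibitor, had a log2 fold change of -0.11 that did not pass (interval -0.22 to -0.0042, adjusted p = 0.0768), and it passed without HG-NC 3 (-0.15, adjusted p = 0.0490) and less the median of the genes within 10 Mb (-0.19, adjusted p = 0.00684). Of the 7 listed IAP genes 6 were tested, 1 rose, 3 fell and 2 did not pass, with a median of -0.22. Over all tested genes 25.9% rose and 25.9% fell. Of the 3 IAP antagonists 2 were tested, and DIABLO passed upward with a mean of 38.5 counts per library. Overlapping genes on the same strand had means of 1788 and 623.5 counts, so its value is uncertain. Its log2 fold change was 0.85, with 1.06 without HG-NC 3 and 0.75 without HG-OE 3. The DIABLO call was lost with limma on log2(FPKM + 1) (0.12, adjusted p = 0.105) and on log2(FPKM + 0.1) (0.52, adjusted p = 0.107).

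CFLAR (chromosome 2, 201116154 to 201176687, plus strand), encoding c-FLIP, fell, as did the nearby caspase gene CASP8. CFLAR stood at 363, 372 and 373 CPM in HG-NC and at 245, 241 and 220.1 CPM in HG-OE. Every HG-OE library lay far below every HG-NC library, and HG-OE 3 was the lowest. The level went from 369 ± 5.52 to 236 ± 13.5 CPM (SD, n = 3), to 0.638 of the control (log2 fold change -0.65, SE 0.0439, edgeR adjusted p = 6.27e-08). CASP8, the initiator caspase that c-FLIP resembles, stood at 48.7, 44.4 and 47.8 CPM in HG-NC and at 32.3, 32.3 and 32.8 CPM in HG-OE (log2 fold change -0.53, edgeR adjusted p = 2.25e-06). The log2 ratio of CFLAR to CASP8 was 2.97 ± 0.0850 in HG-NC and 2.85 ± 0.0969 in HG-OE, overlapping (difference -0.12, exact permutation p = 0.3, adjusted 0.4). CASP10, which lies between CFLAR and CASP8, had a log2 fold change of -0.34 (edgeR adjusted p = 0.00136), in a region with a median of -0.44. Less that median CASP10 was 0.10 (adjusted p = 0.276). CFLAR-AS1, on the opposite strand, had a mean of 39.8 counts per library against 8385 for CFLAR.

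Each value was also set beside those of the genes around it. For each gene, the tested genes within 10 Mb with a mean of at least 100 counts gave a regional median. Around CFLAR the median of 69 genes was -0.42, 52 of them fell and 4 rose, and 11 had fold changes below that of CFLAR. Taking the regional median from each gene left CFLAR at -0.23 (adjusted p = 7.54e-04) and CASP8 at -0.11 (adjusted p = 0.0995). The p-values after this step, here and above, took the median as exact. They leave out how far the neighbours differed among themselves. Around BCL2L11, also on chromosome 2, the median was -0.26 over 58 genes, of which 37 fell and 1 rose. Chromosome 2 as a whole had a median of -0.28 over 810 genes. BID on chromosome 22 had the opposite setting, with a median of 0.33 over 87 genes, of which 67 rose and 11 lay below BID. Less that median the log2 fold change of BID was -0.34 (adjusted p = 1.7e-05). BCL2A1 and BIRC3 differed from their surroundings. The 112 genes around BCL2A1 had a median of 0.06 and none lay below it, and the 61 around BIRC3 had a median of 0.01 with none below it. BIRC2 shared that region, with 4 genes below it. The 31 genes around BCL2 had a median of 0.07, with quartiles of -0.41 and 0.21. The BCL2 value of -0.33 lay between these quartiles, with 9 genes below it. The part of regional shifts in these values was not tested.

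**Figure D3:**
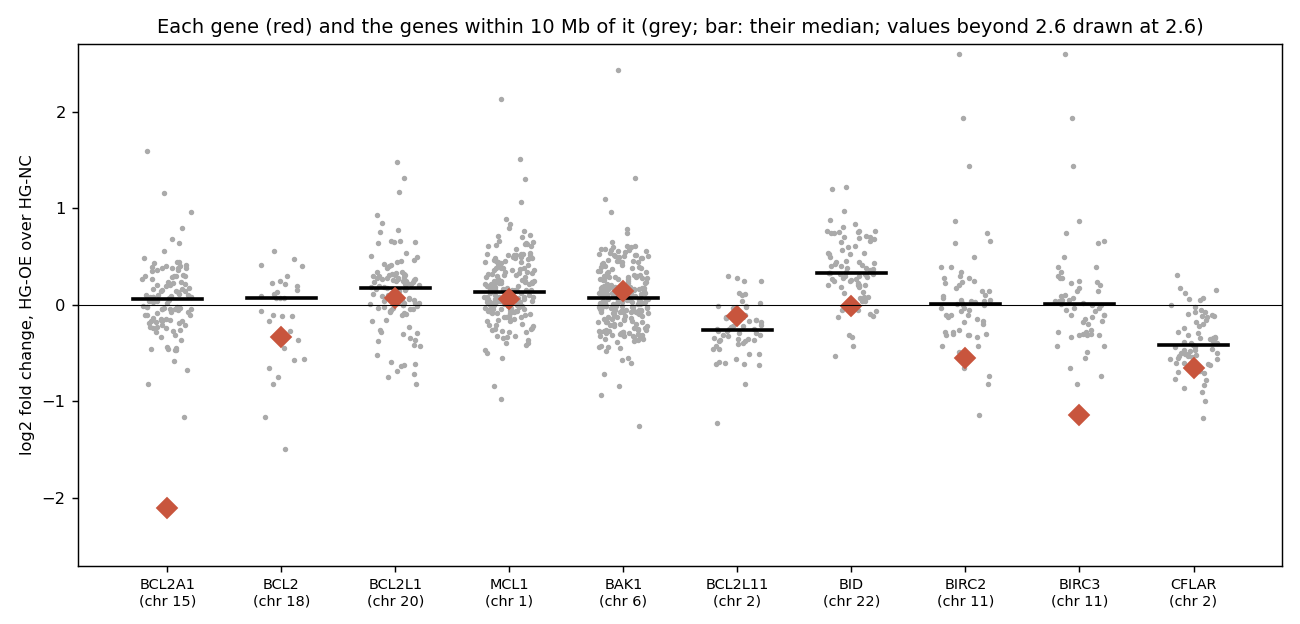
Log2 fold change (HG-OE over HG-NC) of each of the 10 genes (red) and of the tested genes within 10 Mb of it with a mean of at least 100 counts (grey points, black bar at their median; values beyond 2.6 are drawn at 2.6). BCL2A1 and BIRC3 lie under every neighbour, CFLAR lies within a region with a median of -0.42, and BID lies under a regional median of 0.33.

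Compared per length, the order of the 10 genes changed. In HG-NC, mean FPKM ran from 94.7 for BCL2L1 through 30.7 for MCL1, 30.1 for BID, 20.6 for BIRC3, 18.4 for BAK1, 18.1 for BIRC2, 15.3 for BCL2A1, 14.7 for CFLAR and 3.23 for BCL2 to 1.63 for BCL2L11. Library ranges overlapped between MCL1 and BID, between BAK1 and BIRC2 and between BCL2A1 and CFLAR. Within each HG-NC library BAK1 stood above BIRC2 (18.23 against 17.93, 18.45 against 18.13 and 18.47 against 18.27). The order of MCL1 and BID and that of BCL2A1 and CFLAR differed between libraries. In HG-OE the order was BCL2L1 at 98.1, MCL1 at 31.7, BID at 29.6, BAK1 at 20.03, BIRC2 at 12.25, CFLAR at 9.27, BIRC3 at 9.24, BCL2A1 at 3.52, BCL2 at 2.54 and BCL2L11 at 1.49, with overlapping ranges only for CFLAR and BIRC3. BIRC3 passed from rank 4 to rank 7, and BCL2A1 from near CFLAR to near BCL2. In HG-NC, FPKM of the 10 genes followed CPM per kilobase of total annotated exon length, at a ratio of 0.891 to 0.905. That length was 22478 bases for CFLAR, 12612 for BCL2 and 995 for BCL2A1, so the place of a gene depends on it.

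The wider pathway held calls in both directions, as did all tested genes, of which 25.9% passed lower and 25.9% higher. The counts below were not tested against those shares. Of 8 caspase and apoptosome genes 5 fell, 2 rose and 1 did not pass, with a median log2 fold change of -0.27. APAF1, the scaffold of the apoptosome, rose (0.53, edgeR adjusted p = 1.05e-05), and so did CASP2 (0.44, adjusted p = 4.17e-05). Of 7 tested death receptor and ligand genes 3 rose, 3 fell and 1 did not pass, with a median of 0.29. TNFRSF1A, the main TNF receptor, rose from 115 ± 3.94 to 173 ± 9.25 CPM (0.59, adjusted p = 2.28e-07), TNFRSF10D, a decoy receptor, rose by 0.47 (adjusted p = 9.51e-06), TNFSF10, which encodes TRAIL, rose by 0.32 (adjusted p = 8.03e-06), and TNFRSF10A, a TRAIL receptor, fell by 0.32 (adjusted p = 0.00716). Of 8 tested adaptor and kinase genes 4 rose, 3 fell and 1 did not pass, with a median of 0.05. TRAF1, a partner of the cIAPs, fell by 0.61 (adjusted p = 2.20e-04), as did TNFAIP3 (-0.43) and CYLD (-0.39), both deubiquitinases that restrain NF-kB, and MLKL, the necroptosis effector, rose by 0.49 (adjusted p = 1.06e-05). TNFAIP3 lay in a region with a median of -0.38, and less that median it was -0.05 (adjusted p = 0.543). RIPK3 did not pass the filter, with 0 CPM in 5 of the 6 libraries.

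**Figure D4:**
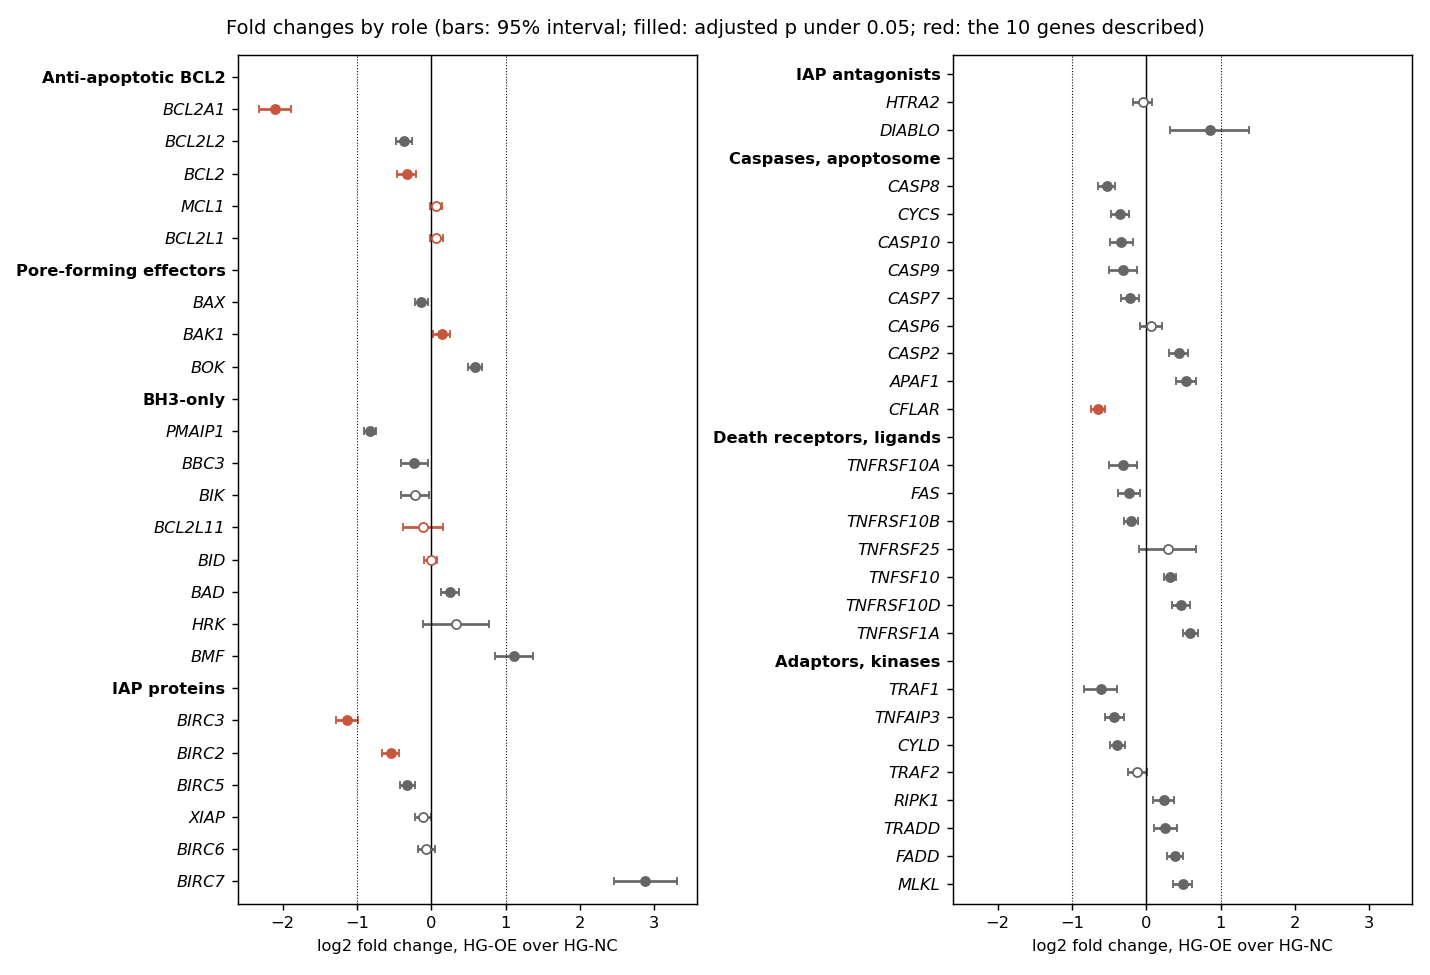
Log2 fold change (HG-OE over HG-NC) with 95% intervals for the tested genes of each role, with the 10 genes in red and filled points for an adjusted p under 0.05; dotted lines mark a 2-fold change. BCL2A1 (-2.11) and BIRC3 (-1.14) lie beyond the lower line and BIRC7 (2.88) and BMF (1.11) beyond the upper one, and CFLAR is drawn below the caspases it resembles.

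The genes nearest to BCL2A1 and BIRC3 in pattern were found by Euclidean distance between log2 CPM values centred on each gene's mean, over the 6 libraries and 12811 protein-coding genes with a mean of at least 1 CPM. Nearest to BCL2A1 were THBS2 (distance 0.207), FXYD6 (0.244) and CAMK1D (0.304), with log2 fold changes of -2.10, -2.12 and -2.07. Nearest to BIRC3 were IKZF3 (0.0829), IL6 (0.117) and CDC42EP3 (0.119), with log2 fold changes of -1.18, -1.09 and -1.20. Such a distance is largely set by the difference between groups, so near genes have similar fold changes by construction. IL6, an inflammatory cytokine, went from 1154 to 541 CPM.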

How the data were processed

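RNA-seq libraries of 3 HG-NC and 3 HG-OE samples of HK-2 cells were analysed. From poly(A) RNA and a strand-marking kit, the authors trimmed paired reads and aligned them with HISAT2 to GRCh38. They deposited read counts per gene from uniquely mapped reads, with FPKM (fragments scaled by gene length and library size) computed from those reads. The HISAT2 version, the annotation, the use of strand in counting and whether ComBat_seq entered the counts are not given in the sources used here. Samples were grouped by their titles. The methods speak of biological replicates and of parallel wells, and the labels do not say which libraries came from separate cultures, so p-values measure the spread between these libraries, which may be technical.

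Counts were tested with edgeR 4.0.16 in R 4.3.3 (TMM, filterByExpr, glmQLFit and glmQLFTest, no covariate). Of 31831 genes 17142 were tested, with Benjamini-Hochberg adjustment over all of them and thresholds of 0.05 and 2-fold. Ratios used a prior count of 2. The biological coefficient of variation was 0.0683, and counting error adds most to genes of few counts. Gene positions came from a GENCODE annotation of GRCh38, matched by Ensembl identifier without its version for 17110 of the genes tested. Alternatives used DESeq2 1.42.0, limma 3.58.1 on log2(FPKM + 1) and other settings. The scripts were tested on simulated data. The named genes were the 10 genes, HNRNPF, up to 4 genes per list with the largest changes past the threshold, BMF, CASP8, BAX, XIAP and BCL2L2, and the 3 genes nearest in pattern to each gene called at 2-fold. CASP10, BCL2L10, RIPK3 and the overlapping genes were named after their values were seen. The cell type markers AQP1, LRP2, SLC5A2, PTPRC and CDH1 were also named outside this rule. The 10 genes and all lists were chosen with earlier results of these data known. 1 gene of the caspase list is not reported here. Mannitol libraries were not analysed here.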

Additional observations from a re-analysis of the deposited data

How the results depend on the processing

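The falls of BCL2A1, BCL2, BIRC2, BIRC3 and CFLAR kept their direction and their call under all 15 alternatives, with log2 fold changes of -2.16 to -1.85, -0.40 to -0.26, -0.62 to -0.51, -1.25 to -1.07 and -0.68 to -0.23. The count of genes past 2-fold, 997 of all genes tested, was 1539 with no low-count filter, 617 with at least 10 counts in every library, 144 with limma on log2(FPKM + 1) and 138 with the same and no FPKM filter, and 989 to 1124 when 1 library was left out. The count of the 10 genes called higher, 1 (BAK1), was 0 with no filter, with DESeq2, in each of the 3 limma fits and with the regional median removed, and 0 to 2 when 1 library was left out. With the regional median removed, the values turned for BCL2L1 (-0.10), MCL1 (-0.069) and BCL2L11 (0.15), none past the threshold. When 1 library was left out, BCL2L11 ran from -0.25 (without HG-OE 3) to 0.018 (without HG-OE 2) and BID from -0.028 (without HG-OE 1) to 0.018 (without HG-OE 3), with 0.014 without HG-NC 3, and only the first of these passed. The cause was not tested.

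Replicate numbers did not pair the libraries (correlations of same-numbered deviations -0.03, 0.03 and 0.00). With the replicate number as a block, 8849 genes passed the adjusted p, 990 also passed 2-fold, and 6 of the 10 genes were called, 5 lower and 1 higher. In the paired form the ratios differed by -0.59, -0.12, 0.19 and -2.15 with exact p of 0.25, 0.5, 0.75 and 0.25, and BAK1 kept an adjusted p of 0.0449 with the block.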
